A study of Mus musculus with 6 samples.

Results

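Schlafen genes were followed in small intestinal organoids that had lost Smarcad1, a chromatin remodelling ATPase. The members were all rows of the deposited expression table whose gene symbol starts with Slfn, and they were 2 of its 1420 genes, Slfn4 and Slfn2. Both rose in KO. Slfn4 went from a mean of 1.80 ± 0.532 RPM in WT to 22.2 ± 2.21 RPM in KO (SD, n = 3 each), and Slfn2 from 0.489 ± 0.424 to 6.88 ± 2.26 RPM (SD, n = 3 each), where RPM is the number of reads of a gene scaled to a common library total. The ratios of the group means were 12.3 for Slfn4 and 14.1 for Slfn2.

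Such organoids grow from isolated crypts embedded in Matrigel, here in medium with EGF, Noggin and R-spondin, and consist of epithelium without microbiota. The 6 libraries are 3 from wild-type mice (WT) and 3 from Smarcad1 knockout mice (KO), all on the C57BL/6 background, and about 600 organoids per condition were collected after 5 days. The KO genotype is labelled as Vil-Cre mediated, a driver restricted to the intestinal epithelium, whereas the growth protocol and the study's methods name ZP3-cre, which deletes in the oocyte and thus in all cells, with control littermates. The groups are therefore called KO and WT only. The design text calls them biological triplicates, and no animal is named per library. Ages of the mice are not given in the sources used here. The table lists only genes that the authors' own test had called on these same libraries, so presence in it is a selection and no further evidence. In bulk RNA, more expressing cells and more RNA per cell cannot be told apart.

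Depth, inferred from the smallest step between RPM values, ran from 1.24e+07 to 1.57e+07 reads per library. Smarcad1 itself was at 94.7 to 105 RPM in WT and at 21.3 to 24.03 RPM in KO, the direction of the labels in all 6 libraries. Of 18 epithelial markers 5 were in the table, 3 higher and 2 lower in KO, with a summed level of 9216 to 9519 RPM in WT and 12497 to 13409 RPM in KO. Lyz1 of Paneth cells, with means of 2953 RPM in WT and 8167 RPM in KO, rose by 1.47 on the log2 scale. Fabp1 of enterocytes, at 3748 and 1815 RPM, changed by -1.04. Krt18 and Muc2 also rose and Alpi also fell, so the higher sum in KO rests on Lyz1. The defining markers Epcam, Vil1 and Cdh1 were not analysed here.

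Schlafen proteins form a family that expanded in rodents. They share an N-terminal core that binds and in some members cleaves RNA, and the longer members carry a helicase-like part in addition. Schlafen genes are best known from immune cells, where many are induced by interferons and by Toll-like receptor ligands, and they have been tied to control of cell proliferation, of tRNA levels and of virus growth. Slfn2 is required for the quiescence of T cells and monocytes and protects tRNAs from cleavage. Slfn4 is a member of intermediate length known from macrophages and other myeloid cells, where it responds to interferon and to Toll-like receptor ligands.

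Slfn4 (ENSMUSG00000000204) is a protein-coding gene on the plus strand of chromosome 11 from 83175186 to 83190216 (GRCm38), with 3 annotated transcripts and 8 merged exons of 3964 bases in all. No annotated gene overlaps it. It was measured at 1.87, 2.30 and 1.24 RPM in WT replicates 1 to 3 and at 19.7, 22.9 and 24.0 RPM in KO replicates 1 to 3. The lowest KO library was 8.58 times the highest WT library, so the groups lay far apart. The WT values rest on 24, 36 and 19 inferred reads and the KO values on 245, 334 and 342. Counted over each group, 79 reads in WT stood against 921 in KO, a depth-corrected ratio of 12.4 (exact 95% interval 9.84 to 15.8, which like all intervals here covers counting error only). The log2 change on the log2(RPM + 0.1) scale, where the added 0.1 bears on genes near 0, given with its standard error (SE), was 3.59 (SE 0.22, limma adjusted p = 0.000112). Slfn4 was even among the KO libraries, whose coefficient of variation was 9.95% and whose exact Poisson intervals all overlapped.

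Slfn2 (ENSMUSG00000072620) is a protein-coding gene on the same strand of chromosome 11 from 83065112 to 83070678, with 1 annotated transcript of 2 exons and 1664 bases. An antisense transcript, Gm20234, lies over the gene on the other strand, but 0 of its exonic bases fall on exons of Slfn2. Slfn2 was measured at 0.699, 0.766 and 0 RPM in WT replicates 1 to 3 and at 8.05, 8.30 and 4.27 RPM in KO replicates 1 to 3. Each KO library was again above each WT library, the closest pair being 5.58 times apart. The inferred reads numbered 9, 12 and 0 in WT and 100, 121 and 61 in KO. The 0 reads of WT replicate 3 allow a level of up to 0.196 RPM, taking 3 reads as the limit. The exact 95% Poisson interval of that library, a different bound, reaches 0.241 RPM. From the summed reads, 21 in WT and 282 in KO, the ratio was 14.3 (exact 95% interval 9.15 to 23.4).

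The log2 change of Slfn2 was 4.03 (SE 0.84, limma adjusted p = 0.00586), which is more than its ratio of means of 14.1 gives. The log2 value of WT replicate 3, with 0 reads, is set by the pseudocount, and the size rests in part on that library, without which it was 3.01 (SE 0.31, limma adjusted p = 0.00304). In KO, replicate 3 was the lowest library, with a Poisson interval of 3.27 to 5.49 RPM against 6.55 to 9.79 in replicate 1 and 6.89 to 9.92 in replicate 2. These intervals leave out the variation between replicates.

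**Figure D1:**
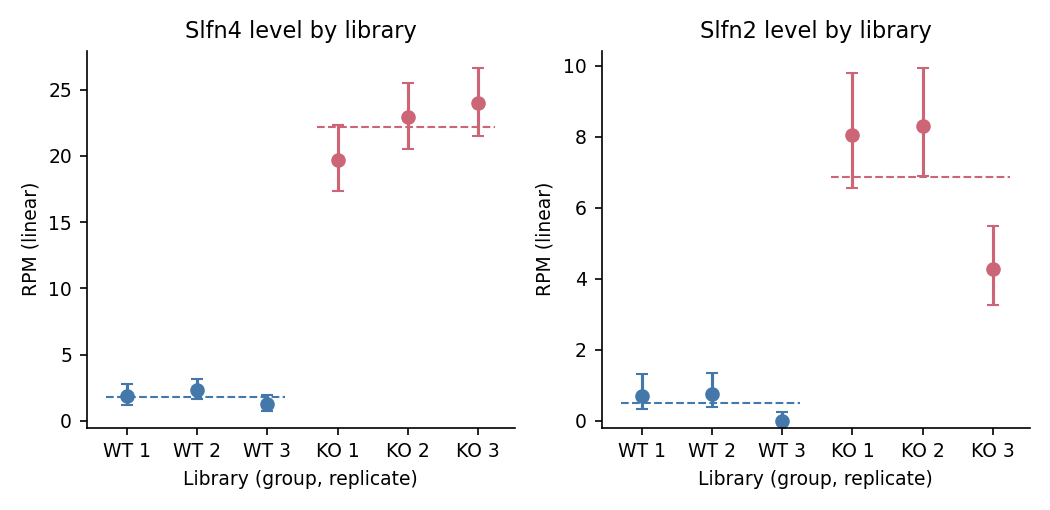
RPM on a linear axis of Slfn4 (left) and Slfn2 (right) in each of the 3 WT (blue) and 3 KO (red) libraries, with exact 95% Poisson intervals from the inferred reads as bars and the group mean as a dashed line. All KO points lie above all WT points for both genes, and KO replicate 3 is the lowest KO library for Slfn2 (4.27 RPM).

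Both members passed the limma threshold (adjusted p under 0.05) as higher in KO, where 52.5% of the 1420 listed genes did so and 47.4% passed as lower. Both had all KO values above all WT values, as had 51.3% of the listed genes, while 47.2% had all KO values below. These calls are therefore no result about the members, and the size of their change is given as a description. Slfn2 had the 10th and Slfn4 the 16th highest log2 change of the 1420 genes. Their order turns with a pseudocount of 1 (2.40 for Slfn2 and 3.06 for Slfn4) or 0.5 (2.96 and 3.32), and without WT replicate 3 (3.01 and 3.36). The median over the listed genes higher in KO was 0.77 and their 90th percentile 2.09. A call with a log2 change of at least 3 was reached by 1.9% of the listed genes, both members included. Exact permutation tests, two-sided, gave p = 0.1 for each member (0.15 after adjustment over the 3 comparisons made this way), and 0.1 is the smallest value that 3 against 3 libraries allow.

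The table holds only genes already called, and a gene near 0 in WT could enter it mostly by being high in KO. The values of listed genes at like WT levels are therefore given as a description, fixed in direction largely by that selection. Of the 89 listed genes whose WT mean did not exceed that of Slfn4, Slfn4 itself included, 84 had a positive log2 change. These 84 values were at least 1.28 with a median of 2.39 on the log2 scale, and 13 of these genes changed by more than Slfn4. At or under the WT mean of Slfn2 all 39 listed genes, Slfn2 itself included, had a positive log2 change, 3.23 at the median, and 7 changed by more than Slfn2. In level, Slfn4 went from the 6.2th percentile of listed genes in WT to the 26.7th in KO, and Slfn2 from the 2.68th to the 11.1th, so both stayed among the less abundant listed transcripts.

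**Figure D2:**
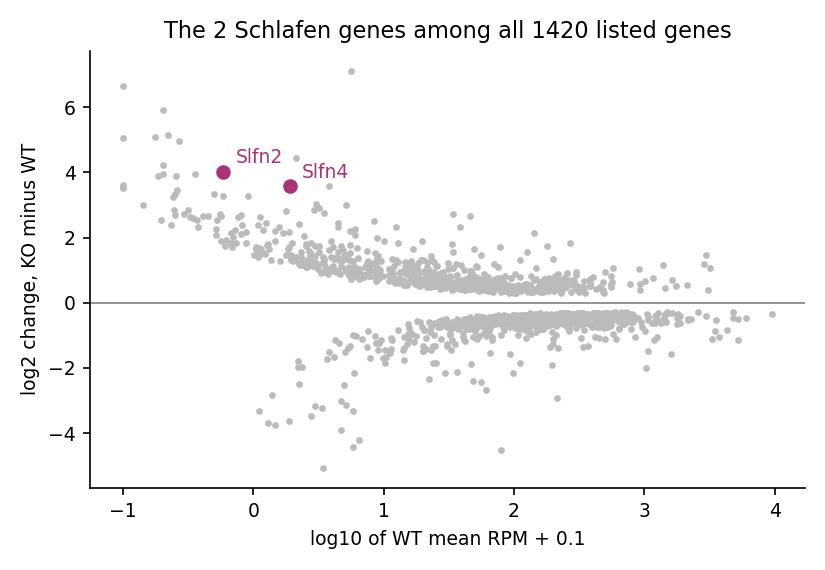
Log2 change in KO minus WT (y axis) against the log10 of the WT mean RPM + 0.1 (x axis) for the 1420 listed genes (grey) with Slfn2 and Slfn4 in purple. Both members lie among the listed genes of low WT level, with changes of 4.03 and 3.59.

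Scaled by the length of their merged exons, Slfn4 was above Slfn2 in each of the 6 libraries, by 1.03 to 2.35 times in the 5 where Slfn2 had reads. In WT, Slfn4 had 0.471, 0.580 and 0.313 RPM per kb and Slfn2 had 0.420, 0.461 and 0 RPM per kb in replicates 1 to 3. In KO, Slfn4 had 4.98, 5.78 and 6.05 RPM per kb and Slfn2 had 4.84, 4.99 and 2.57 RPM per kb. The order of the mean levels per length was Slfn2 in WT (0.294 ± 0.255), Slfn4 in WT (0.454 ± 0.134), Slfn2 in KO (4.13 ± 1.36) and Slfn4 in KO (5.60 ± 0.557 RPM per kb, SD, n = 3 each). Within WT the ranges of both genes overlapped on this scale, within KO they did so barely (4.99 for the highest Slfn2 and 4.98 for the lowest Slfn4 library), and between genotypes they did not.

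**Figure D3:**
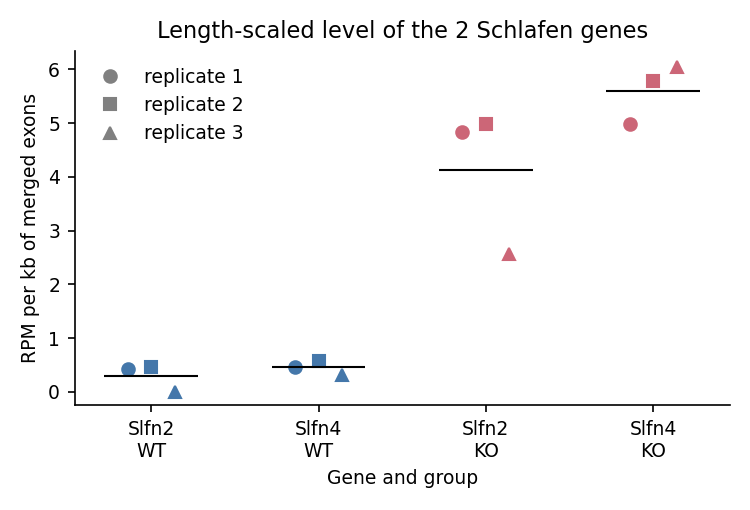
RPM per kb of merged exons for Slfn2 and Slfn4 in WT (blue) and KO (red), with 1 symbol per replicate and a line at the group mean. Both genes lie under 0.6 in WT and between 2.57 and 6.05 in KO.

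To ask whether both genes changed by the same factor, the log2 ratio of Slfn4 to Slfn2 was taken within each library, where a scale factor of the library nearly cancels if both genes are well above the added 0.1, which Slfn2 in WT is not. It was 1.30, 1.47 and 3.74 in WT and 1.28, 1.45 and 2.46 in KO, on the log2(RPM + 0.1) scale. The means differed by -0.44 in KO minus WT (exact permutation p = 0.6, two-sided), and the 9 differences between single KO and WT libraries ran from -2.46 to 1.16. With 3 against 3 libraries this test cannot go below 0.1, so it could not pass 0.05, and a range this wide shows neither a difference between the rises nor that both rose alike. The sign depended on WT replicate 3, where Slfn2 had 0 reads: without it the difference was 0.35.

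The ratio in KO was also highest in replicate 3, where Slfn4 was 5.61 times Slfn2 in RPM, against 2.45 and 2.76 times in the others. Among listed genes higher in KO, 59.7% had their lowest KO value in KO replicate 3. The log2 difference of KO replicate 3 minus replicate 1 had a median of -0.54 in the quartile of shortest transcripts and of 0.13 in the longest. Slfn2, with 1664 bases in the shortest quartile, was at -0.90, and Slfn4, with 3958 bases in the third, at 0.28. When a smooth trend with transcript length was removed from each library, the log2 changes were 3.55 for both Slfn2 (SE 0.83, limma adjusted p = 0.00719) and Slfn4 (SE 0.20, limma adjusted p = 0.000106). The part of RNA length or integrity in the spread of Slfn2 was not tested beyond this.

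Slfn2 and Slfn4 are separated by 104.5 kb, from the end of the one to the start of the other, and their starts are 110.1 kb apart. They belong to a cluster of 10 annotated Slfn genes that takes up 344.4 kb of chromosome 11, from Slfn5os at 82942341 to the end of Slfn14 at 83286726. The only protein-coding gene between them is Slfn1, from 83116849 to 83122670 on the same strand, beside 6 non-coding or pseudogene entries. Slfn3 begins 1.11 kb beyond the end of Slfn4. The 8 other genes of the cluster (Slfn5os, Slfn5, Slfn9, Slfn8, Slfn10-ps, Slfn1, Slfn3 and Slfn14), and Slfnl1 on chromosome 4, were not analysed here, and nothing is said of their levels.

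Close relatives make it necessary to ask whether reads could be assigned to the wrong gene. Over their coding sequences (1134 bases in Slfn2 and 1806 in Slfn4) both members were 75.1% identical in aligned bases. Slfn4 was 92.3% identical to Slfn3 and 75.05% to Slfn1, and Slfn2 was 75.2% identical to Slfn3 and 71.3% to Slfn1. Of all windows of 50 bases, the length of a read, 4.27% of the Slfn2 transcript occur in another annotated transcript, all of them in Slfn4. For Slfn4 the share was 11.6%, with 252 windows also in Slfn3, 161 in the pseudogene Gm11427, 69 in Slfn2, 19 in 9830107B12Rik and 11 in Slfn1. Sequencing was paired-end and the authors kept uniquely mapped reads only, so pairs that match several genes equally would not have been counted.

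The bases just upstream of both starts are shown because both genes rose and lie in 1 cluster. They come from RefSeq (GRCm38.p6), cover the 250 bases before the annotated start on the plus strand, and lie at chr11:83064862-83065111 for Slfn2 and chr11:83174936-83175185 for Slfn4. Capitals mark the longest run of bases that both windows share, which was found after the sequences had been read.
Slfn2: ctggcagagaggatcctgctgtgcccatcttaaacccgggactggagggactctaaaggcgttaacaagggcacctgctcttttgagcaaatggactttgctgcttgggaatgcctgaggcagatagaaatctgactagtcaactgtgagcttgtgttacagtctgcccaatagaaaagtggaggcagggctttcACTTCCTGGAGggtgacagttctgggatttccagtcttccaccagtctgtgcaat
Slfn4: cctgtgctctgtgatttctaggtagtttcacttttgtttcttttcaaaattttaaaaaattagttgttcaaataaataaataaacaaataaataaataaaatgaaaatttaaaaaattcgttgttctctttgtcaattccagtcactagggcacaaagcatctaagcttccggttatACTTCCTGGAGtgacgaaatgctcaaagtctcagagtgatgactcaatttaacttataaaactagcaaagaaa

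The shared run, ACTTCCTGGAG, is 11 bases long and begins 55 bases before the start of Slfn2 and 73 bases before that of Slfn4. On either strand it occurs in 20 of 32851 windows of this length before annotated mouse starts (0.0609%). Slfn2 and Slfn4 hold it by construction, and of the other Slfn genes of the cluster with a window in the RefSeq table Slfn1 holds it. How long a run such windows share by chance was not tested. It holds the core ACTTCC, which is found in 19.7% of all windows and also in those of Slfn1 and Slfn3. Sites of ETS factors such as the myeloid factor PU.1 are often written in this form. In base composition the windows differ, with 50.8% G and C for Slfn2 and 29.6% for Slfn4, against a median of 52.4%.

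Elements of the interferon response were searched in the same windows on both strands. The core of the interferon-stimulated response element, 2 copies of GAAA with any 2 bases between, was found in 0 places in either window, against 2.98% of all windows, and occurred in those of Slfn5, Slfn8 and Slfn9. The shorter element of interferon regulatory factors, AANNGAAA, was found 2 times for Slfn2, once overlapping the shared run, and 3 times for Slfn4. It was found in 21.3% of all windows, and among the other Slfn genes in those of Slfn1, Slfn3, Slfn5, Slfn8 and Slfn9. The gamma-activated site, TTCNNNGAA, was found in 0 places in both (7.02% of all windows). A TATA box, TATAAA, begins 19 bases before the annotated start of Slfn4 and is not in the Slfn2 window (12.4% of all windows). These matches describe letters, and binding was not measured.

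Listed genes around the cluster are described next, though a table of called genes only cannot show how far changes reach. Within 1 Mb of the members the annotation holds 45 protein-coding genes, of which 6 were listed, the 2 members included. The listed non-members numbered 6 over all gene types, 2 higher and 4 lower, all of them past the limma threshold as 99.9% of listed genes were. The nearest was AA465934, a non-coding transcript that begins 4.97 kb beyond Slfn14 and 101.5 kb beyond Slfn4. It stood at 2.56, 3.90 and 2.74 RPM in WT and at 11.2, 10.9 and 9.25 RPM in KO, with a log2 change of 1.75 (SE 0.18, limma adjusted p = 0.000727), and it hosts the small nucleolar RNA gene Snord7. The antisense transcript Gm11423, 284.1 kb before Slfn2, rose by 0.85 on the log2 scale (limma adjusted p = 0.0062).

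The other listed neighbours were lower in KO. Rffl, a ubiquitin ligase gene 193.9 kb before Slfn2 that overlaps Lig3, had 77.0 ± 6.67 RPM in WT and 56.2 ± 7.25 RPM in KO (SD, n = 3 each; limma adjusted p = 0.0159). Ccl9, a chemokine gene 382.7 kb beyond Slfn4, went from 51.9 ± 9.18 to 30.9 ± 4.88 RPM (SD, n = 3 each; limma adjusted p = 0.00965). Acaca, the cytosolic acetyl-CoA carboxylase of fatty acid synthesis, and Gm11437, which lies within it on the other strand, changed by -0.57 and -1.02 on the log2 scale (limma adjusted p = 0.0307 and 0.0171). Listed genes around the cluster therefore moved both ways, and the log2 changes of Slfn2 and Slfn4 were larger than those of the 6 neighbours. Each of these neighbours also had a higher WT mean than both members. The unlisted genes of the window were not analysed here.

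**Figure D4:**
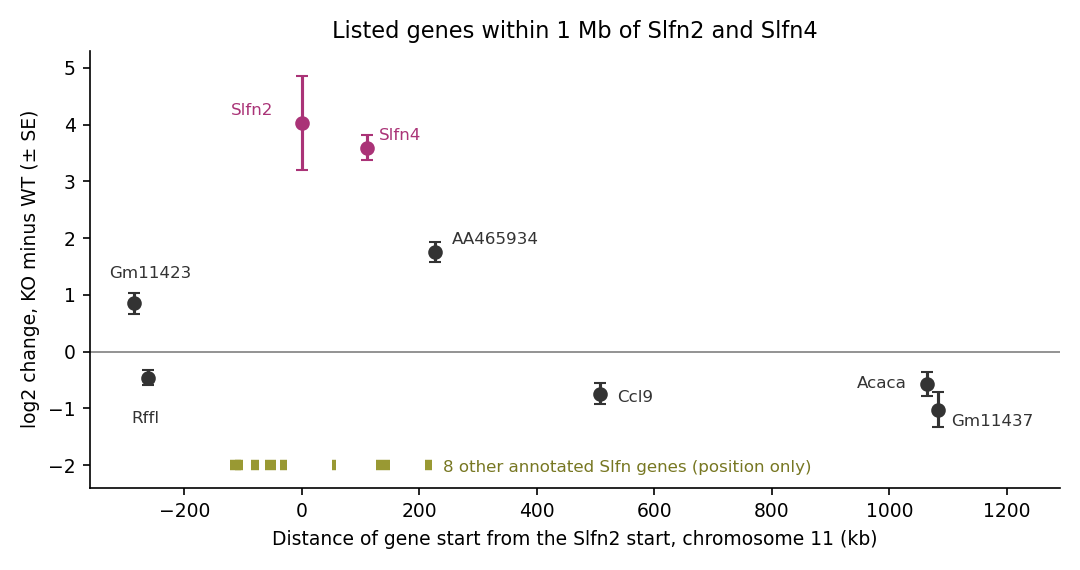
Log2 change in KO minus WT (y axis, bars are standard errors) of the 8 listed genes within 1 Mb of the members, against the distance of each start from that of Slfn2 in kb (x axis). Slfn2 (4.03) and Slfn4 (3.59) stand above AA465934 (1.75), and the bars at the bottom mark the position of the 8 cluster genes that were not analysed here.

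The other interferon-stimulated genes in the table had smaller log2 changes than the Schlafen genes, but most had higher WT levels. Only Xaf1 had a WT mean under the 1.80 RPM of Slfn4, and the rest ran from 2.24 (Oas1g) to 442.6 RPM (Lgals9). Listed genes that rose from such low WT levels changed by at least 1.28, so the sizes are not compared at like levels. Of 76 genes in a list of interferon-stimulated genes 10 were in the table, of which 8 rose and 2 fell, where 52.5% of all listed genes rose. Their median log2 change was 0.79 against 0.38 over all listed genes, and neither difference from the table was tested. The 66 others were not analysed here, so the list cannot show how the response as a whole moved. Xaf1, a proapoptotic gene, had 0.517 ± 0.233 RPM in WT and 2.15 ± 0.280 RPM in KO (SD, n = 3 each), and rose by 1.92 on the log2 scale (limma adjusted p = 0.00196). Ifit1bl1, of the family that recognises foreign RNA ends, rose by 1.53, Ifi27 by 1.24 and Oas1g, of the oligoadenylate synthetase family, by 1.16 (limma adjusted p = 0.00355, 0.00813 and 0.00662). The genes that fell were Oasl1 at -0.56 and Lgals9, a galectin, at -0.37. KO replicate 3 was the lowest KO library for 6 of the 8 that rose, where it was so for 59.7% of all listed genes higher in KO. For Ifi27 it gave 32.3 RPM against 66.6 and 60.0 RPM in the others, and for Ifit1bl1 10.4 RPM against 18.6 and 20.5 RPM.

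**Figure D5:**
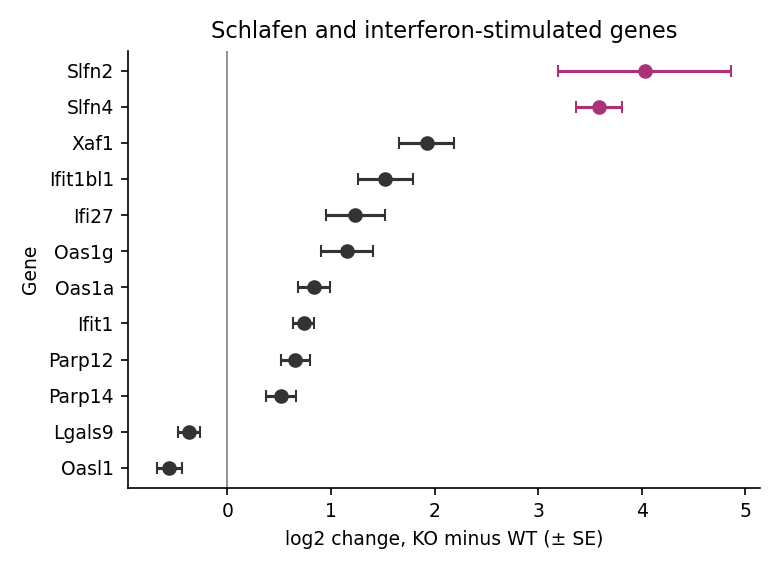
Log2 change in KO minus WT (x axis, bars are standard errors) of Slfn2, Slfn4 (purple) and the 10 listed interferon-stimulated genes (black). Both Schlafen genes lie to the right of all 10, of which Xaf1 is highest at 1.92 and Oasl1 lowest at -0.56. Only Xaf1 has a WT mean under that of Slfn4, so levels in WT are not alike.

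Of 48 genes for interferon and Toll-like receptors and their signalling, 3 were in the table, 1 higher and 2 lower. Tlr4, the receptor for bacterial lipopolysaccharide, was at 0.155, 0.0639 and 0.261 RPM in WT and at 2.01, 3.09 and 2.87 RPM in KO, and rose by 3.46 on the log2 scale (limma adjusted p = 0.000499). Its adaptor Ticam1 and Wdfy1, which assists that adaptor, were lower, with log2 changes of -0.39 and -0.70 (limma adjusted p = 0.00909 and 0.00179). The Hedgehog pathway, which is known to act on Slfn4 in stomach myeloid cells, had 0 of 11 genes in the table. Angiogenins are ribonucleases, and angiogenin is known to cleave tRNAs. Of 8 genes in a list of angiogenins, related ribonucleases and their inhibitor 3 were in the table, and these 3 rose, where 52.5% of all listed genes did, so the count is too small to read. These were Ang4, an antimicrobial angiogenin of Paneth cells, from 494.7 ± 42.6 to 957.6 ± 175 RPM, Rnase4 by 0.61 and Ang by 0.61 on the log2 scale (SD, n = 3 each; limma adjusted p = 0.00325, 0.00243 and 0.0119).

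Markers of immune cells were looked up, since Slfn4 and Slfn2 are best known from them. Of 27 myeloid markers 2 were in the table and moved in opposite directions. Lyz2, a lysozyme, was higher in KO at 3.71 to 6.04 RPM against 1.31 to 2.41 RPM, and Itgam, the integrin of macrophages and granulocytes, was lower at 2.82 to 5.83 RPM against 8.55 to 10.7 RPM. Their summed level ran from 10.6 to 12.5 RPM in WT and from 8.27 to 11.7 RPM in KO, so these ranges overlapped. On the log2 scale Lyz2 rose by 1.46, and Lyz1 of Paneth cells, also a lysozyme gene, by 1.47. In WT and KO the means were 1.83 and 5.19 RPM for Lyz2, and 2953 and 8167 RPM for Lyz1. Whether reads of Lyz1 were assigned to Lyz2 was not tested. Of 25 lymphoid markers 0 were in the table, and of 10 stromal and endothelial markers 0. The pan-leukocyte gene Ptprc was not analysed here either. No listed marker was at 0 in a library, and the part of immune cells in the rise of Slfn4 and Slfn2 was not tested.

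The profiles most like those of the members were sought over the 6 libraries, as the smallest root mean square distance of log2(RPM + 0.1) after centring each gene on its WT mean. For Slfn4 these were Hormad2 (0.44), AC157950.2 (0.50) and Nxf7 (0.53), with a median of 2.28 over 1419 genes. Hormad2, a gene of the meiotic chromosome axis, was listed at 0 in each WT library and at 0.841 to 1.61 RPM in KO, so its distance is set by the pseudocount and its place as the nearest is not a likeness in measured WT level. AC157950.2 went from 1.76 to 3.96 RPM in WT to 20.9 to 24.9 RPM in KO, and Nxf7, of the nuclear RNA export factor family, from 2.56 to 3.39 to 22.6 to 27.0 RPM. For Slfn2 they were Mb (myoglobin, 0.75), Il7 (a cytokine of lymphocyte survival, 0.85) and Slfn4 itself (0.92), with a median of 2.79. Mb was at 0.0653 to 0.699 RPM in WT and at 2.95 to 7.57 RPM in KO, and Il7 at 0 to 0.233 and 1.29 to 3.43 RPM. With Slfn2 and Il7 at 0 in WT replicate 3, these distances depend on the pseudocount as well, and the ranks were computed with 0.1 only. Slfn4 was thus the third nearest of 1419 genes to Slfn2, while Slfn2 was the 35th nearest to Slfn4. As centring was on WT only, the distance includes the KO change, and genes with changes of like size lie near each other. The ranks therefore largely reflect the size of the change, and common regulation was not tested.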

How the data were processed

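Per the labels and the study's methods, mRNA was prepared as directional libraries, trimmed with Trim Galore (0.4.2), mapped to GRCm38 with HISAT2 (2.0.3) and counted by the authors over merged exons in SeqMonk from uniquely mapped reads. Whether strand was used in counting is not given in the sources used here. The authors chose the 1420 genes by DESeq2 from counts not used here. The deposited values are RPM on a linear scale. The deposited corrected p-values of that comparison were not used.

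In each library 100% of the low values (929 to 1051 per library, tolerance 0.02) were whole multiples of its smallest value, which was taken as 1 read. As the deposited unit is RPM, no count test was run, and no p-value comes from reads. The exact intervals of the ratios are binomial limits on the summed inferred reads and leave out variation between replicates. Genes were tested with limma (3.58.1, R 4.3.3) on log2(RPM + 0.1) over all 1420 genes with no covariate. Tests were two-sided, and p-values were adjusted by Benjamini-Hochberg. The script was tested on simulated data in which most genes did not change, a setting unlike this table of called genes. Single values had exact permutation tests. P-values rest on the spread between these libraries, which limma draws for each gene toward that of all 1420 genes. Those genes were chosen by a test on the same libraries, so the adjusted p-values are no independent evidence. Annotation was GENCODE M21, matched for 1397 genes by symbol and position, 1242 with identical start and end. Coding sequences were aligned globally (Biopython 1.88).

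Members, gene lists and alternatives were chosen with earlier results of these data known. Named were the members, Smarcad1, listed genes within 1 Mb, the 3 nearest profiles per member and up to 4 genes per list with the largest changes. Alpi, Oasl1 and Lgals9 fall outside this rule and were named after their values were seen. Alternatives were other pseudocounts, a replicate block, centring, a filter on low means, an intensity trend, removal of a length trend and leaving out each library.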

Additional observations from a re-analysis of the deposited data

How the results depend on the processing

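Slfn4 and Slfn2 kept their direction and a limma adjusted p-value under 0.05 under the 12 alternatives run for each. The log2 change of Slfn4 ran from 3.06 (pseudocount of 1) to 3.59, and from 3.36 to 3.78 when single libraries were left out. That of Slfn2 ran from 2.40 (pseudocount of 1) to 4.03, and from 3.01 to 4.56 when single libraries were left out, the lowest without WT replicate 3. Keeping only genes with a mean of at least 18.5 RPM (the 25th percentile) removes both members and gave no value for them. The difference of the Slfn4 to Slfn2 ratio (-0.44, exact permutation p = 0.6) changed sign to 0.66 with a pseudocount of 1 (permutation p = 0.1), 0.36 with 0.5 and 0.0022 with the length trend removed, and ran from -0.87 to 0.35 across left-out libraries. In WT replicate 3 Slfn2 has 0 reads, so its log2 value is set by the pseudocount. The number of listed genes past the threshold ran from 1065, the genes left by the filter, to 1420, and from 1138 to 1404 without single libraries.

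With the replicate block the log2 changes were 3.59 for Slfn4 (limma adjusted p = 0.00171) and 4.03 for Slfn2 (limma adjusted p = 0.00487), the ratio differed by -0.44, and 1351 listed genes passed. Same-numbered libraries had correlations of deviations of -0.08, 0.09 and 0.06. Of the WT libraries, replicates 2 and 3 correlated best with the KO library of their own number and replicate 1 with KO replicate 2. None of the 3 pairs exceeded 0.1, so the numbers were not taken to pair the samples.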
